A study of Mus musculus with 8 samples.

Results

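The endogenous opioid system was measured here as 7 genes, the 3 precursor genes *Penk*, *Pdyn* and *Pnoc* and the 4 receptor genes *Oprm1*, *Oprd1*, *Oprk1* and *Oprl1*. They were chosen by name among the 35968 genes that the deposited transcripts of TN SST neurons could be joined to. All 7 had enough reads in the sorted neurons of 4 female and 4 male mice to be compared between the sexes. TN SST neurons are the somatostatin neurons of the tuberal nucleus of the hypothalamus, which the study examined for their part in feeding.

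Opioid peptides are cut from large precursor proteins inside secretory vesicles and act on receptors that couple to inhibitory G proteins. Proenkephalin (*Penk*) yields enkephalins, which act on delta (*Oprd1*) and mu (*Oprm1*) receptors, prodynorphin (*Pdyn*) yields dynorphins, which prefer the kappa receptor (*Oprk1*), and prepronociceptin (*Pnoc*) yields nociceptin, the ligand of the nociceptin receptor (*Oprl1*). Receptor activation opens potassium channels, closes calcium channels and lowers cyclic AMP, so that neurons fire and release less. In the hypothalamus these peptides are known for their part in feeding, reward, stress and the control of reproductive hormones.

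Both groups carried the same alleles and the same agent. Adult mice heterozygous for the *Sst* tm2.1(cre)Zjh/J allele, kept on a C57BL/6J background, were injected with AAV2-flex-tdTomato, a virus whose red fluorescent protein is made only in cells with Cre. Cre is driven by the *Sst* locus, so red cells are those that have expressed *Sst*, whatever they express at harvest. Females were cycling, with the cycle stage of each mouse not given in the sources used here, and males were gonadally intact. Every mouse received the opioid analgesic buprenorphine around the injection and was used after a recovery period. The TN was microdissected and dissociated with papain, live nucleated red cells were sorted, and RNA of a small number of cells gave 1 library per mouse. In such bulk samples fewer cells of a type and less RNA per cell cannot be told apart.

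A library held 7.83 to 17.6 times 1000000 estimated counts. In all 8 mice *Sst* mRNA, at 897.5 to 1883 TPM (transcripts per 1000000, a level divided by transcript length), and the vesicular GABA transporter gene *Slc32a1*, at 69.7 to 168 TPM, were detected. So was *Slc17a6*, the glutamate transporter gene of excitatory hypothalamic neurons, at 50.2 to 152 TPM, a range that overlapped that of *Slc32a1*. Other cells were present too. The 6 microglia genes summed to 237 to 1439 TPM in females and to 527 to 2730 TPM in males, and all 6 had the higher mean in males. The 8 general neuron genes summed to 1723 to 2389 TPM in females and to 1271 to 1643 TPM in males, so that on this sum no male reached the lowest female.

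The peptides themselves can be read in the coding sequence of the leading transcripts, and they are shown because they set what each precursor mRNA can deliver to the receptors. Each line holds 27 coding bases from the GENCODE M21 transcripts (GRCm38), 5′ to 3′, with the 4 codons shared by the start of every enkephalin and dynorphin, or their nociceptin counterpart, in capitals. The 2 codons before the capitals and the 3 after them are in lower case.
Penk copy 1: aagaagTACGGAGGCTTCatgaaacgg
Penk copy 2: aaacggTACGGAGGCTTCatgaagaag
Penk copy 3: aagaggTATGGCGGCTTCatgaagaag
Penk copy 4: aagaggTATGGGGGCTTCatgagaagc
Penk copy 5: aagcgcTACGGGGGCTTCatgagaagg
Penk copy 6: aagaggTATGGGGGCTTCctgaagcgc
Penk copy 7: aaaagaTACGGGGGCTTTatgcggttc
Pdyn copy 1: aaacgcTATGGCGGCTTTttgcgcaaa
Pdyn copy 2: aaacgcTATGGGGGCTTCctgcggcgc
Pdyn copy 3: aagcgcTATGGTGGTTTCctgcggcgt
Pnoc copy 1: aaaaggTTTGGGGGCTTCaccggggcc

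*Penk*, with 804 coding bases, held 7 copies of the enkephalin core, of which 6 were followed by a methionine codon and 1 by a leucine codon. In 5 of the 7 copies the 5-codon peptide lay directly between 2 pairs of basic codons, the places where prohormone convertases cut. *Pdyn*, with 744 coding bases, held 3 copies, all followed by a leucine codon and all with the 5 codons between basic pairs. Since these codons are only the start of a dynorphin, the pair after them need not mark where a dynorphin ends. The capitals begin at coding bases 298, 319, 406, 559, 631, 691 and 784 of *Penk* and at 496, 604 and 661 of *Pdyn*. *Pnoc*, with 561 coding bases, held no enkephalin core and 1 nociceptin core at base 421, whose first codon in capitals differs in what it encodes. A count of mRNA therefore stands for different numbers of peptide copies in the 3 precursors.

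Per length, *Oprl1*, *Penk* and *Pdyn* were the most abundant of the 7 mRNAs and *Oprd1* the least. Over the 8 mice the mean level was 75.8 TPM for *Oprl1*, 71.9 TPM for *Penk* and 57.1 TPM for *Pdyn*. *Oprm1* followed at 25.4 TPM, *Oprk1* at 16.7 TPM, *Pnoc* at 13.4 TPM and *Oprd1* at 2.72 TPM. By this mean *Oprl1* ranked 2285 and *Oprd1* 13581 among the 25276 genes with any count, so the nociceptin receptor gene was among the better expressed genes of these cells and the delta receptor gene near the middle of the ranks.

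Neighbours in this order, taken by mean log2 TPM, were compared within mice by a 2-sided exact sign-flip permutation test, in which 8 mice cannot give a p below 0.00781. The order came from the same values, so the p-values describe how far the mice agree on a step and do not test the order itself. *Pdyn* lay above *Oprm1* by a log2 difference of 1.21, *Oprm1* above *Oprk1* by 0.63 and *Pnoc* above *Oprd1* by 2.34, each in 8 of 8 mice (exact permutation p = 0.00781, adjusted over 6 pairs p = 0.0156). Each of these 3 p-values is the smallest the test allows, reached because all 8 mice agreed in sign. The step from *Pdyn* to *Oprm1* was uneven, with a mean of 0.33 in females and 2.09 in males and an SD of 0.97 over the 8 mice. The step from *Oprm1* to *Oprk1* depends on dividing by length, since in CPM *Oprk1* was above *Oprm1* in 7 of 8 mice. The step from *Oprl1* to *Penk* was 0.15 (exact permutation p = 0.531), that from *Penk* to *Pdyn* 0.31 (exact permutation p = 0.375) and that from *Oprk1* to *Pnoc* 0.22 (exact permutation p = 0.391). None of these 3 exceeded the spread between mice. All 3 of these steps had means of opposite sign in the sexes. *Oprl1* minus *Penk* was -0.07 in females and 0.37 in males. *Penk* was above *Pdyn* in 4 of 4 females but 1 of 4 males, and *Oprk1* was above *Pnoc* in 4 of 4 females but 1 of 4 males. Both counts depend on dividing by length. In CPM *Penk* was above *Pdyn* in female 4 alone, and *Oprk1* was above *Pnoc* in every mouse. In TPM the order of means began with *Penk* in females and with *Pdyn* in males.

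**Figure D1:**
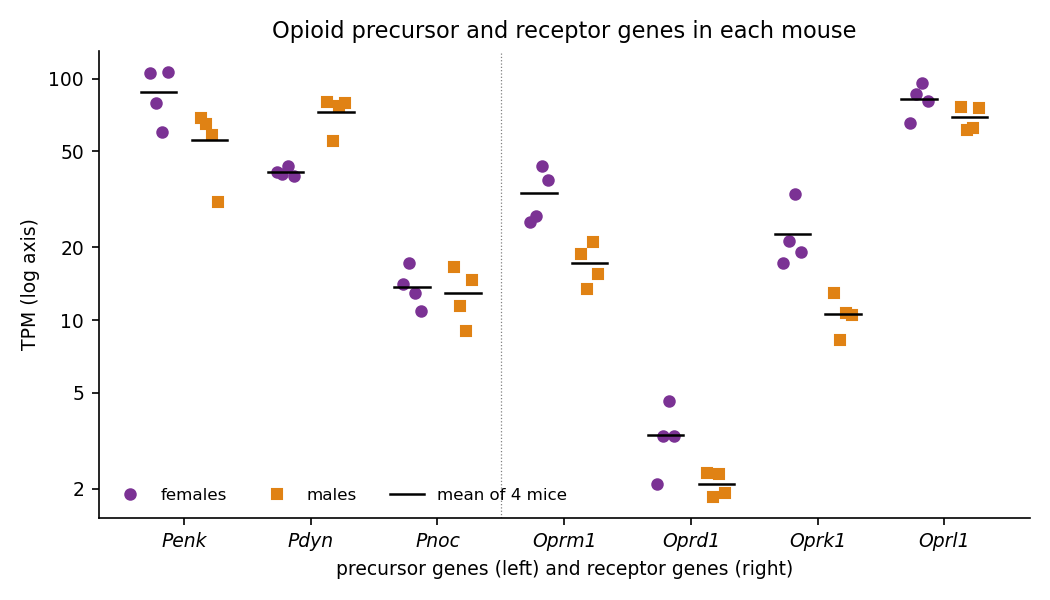
Level of each opioid precursor and receptor mRNA in TPM (log axis) in 4 females (circles) and 4 males (squares), with the mean of each sex as a line. For *Pdyn* every male lies above every female, for *Oprm1* and *Oprk1* every female lies above every male, and the sexes overlap for the other 4 genes.

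Female and male TN SST neurons were then compared to ask whether the sexes differ in the mRNA of opioid ligands and receptors. None of the 7 genes passed the test at an adjusted p under 0.05 (edgeR's quasi-likelihood test, Benjamini-Hochberg over 15194 genes, of which 0.158% were called, 0.112% higher in females and 0.0461% higher in males). Unadjusted p was under 0.05 for 4 of the 7, against 20.5% of all genes tested. The sexes did not overlap on log2 CPM (counts per 1000000) for 3 of the 7, *Pdyn* with males above and *Oprk1* and *Oprm1* with females above, against 10.4% of all genes tested (6.48% with females above and 3.94% with males above). With DESeq2, the tool the study used, those 3 genes were called, against 7.86% of all genes it tested. Over the 7 genes the log2 fold change (female over male) had a median of 0.55, with 5 higher in females and 2 in males. Over all genes tested the median was -0.0043, with 49.4% higher in females.

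*Pdyn*, the dynorphin precursor, had the smallest p of the 7 and was higher in males. Its level was 41.0, 40.4, 43.6 and 39.7 TPM in the 4 females and 80.4, 55.4, 76.9 and 79.1 TPM in the 4 males. The lowest male stood above the highest female, and the females lay within a few TPM of each other while 1 male, replicate 2, lay well below the other males. Female mice averaged 51.0 ± 3.65 CPM and male mice 93.8 ± 16.95 CPM (SD, n = 4 each), 1.84-fold more in males. The log2 fold change was -0.88 with a standard error of 0.136, and its p ranked 25 among the 15194 genes, just past the last gene called (edgeR's quasi-likelihood test, adjusted p = 0.0570). An exact permutation test over mice gave p = 0.0286, the smallest that 4 against 4 allow. Without male replicate 2 the log2 fold change was -1.005 and the adjusted p of the same edgeR test was 0.00471, and that p was 0.0370 without female 1 and 0.0441 without male 1, where 2.67% and 2.65% of all genes were called. Over all 8 ways of leaving out 1 mouse the log2 fold change stayed between -1.005 and -0.82, with an adjusted p of 0.00471 to 0.192.

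*Oprk1*, the gene of the kappa receptor on which dynorphins act, differed in the other direction. It was at 17.3, 21.3, 33.2 and 19.2 TPM in females and at 12.9, 8.29, 10.7 and 10.5 TPM in males. Every female was above every male, with female 3 the highest by a wide margin and male 1 the nearest to the females. Female mice averaged 43.3 ± 10.8 CPM and male mice 19.3 ± 2.98 CPM (SD, n = 4 each), 2.25-fold more in females. The log2 fold change of 1.17 had a standard error of 0.185 (edgeR's quasi-likelihood test, adjusted p = 0.0598), and the exact permutation test gave p = 0.0286. The middle 90% of all genes tested ran from -1.13 to 0.58 on this log2 scale. *Oprk1* lay above it, and *Pdyn* at -0.88 lay inside it. Leaving out 1 mouse at a time gave log2 fold changes of 0.98 to 1.29, with an adjusted p of 0.0355 to 0.164. The adjusted p of the edgeR test was 0.0355 without female 1 and 0.0441 without male 1, in fits that called 2.67% and 2.65% of all genes.

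Ligand and receptor mRNA can be set side by side within each mouse as the ratio of *Pdyn* to *Oprk1* TPM. The ratio was 2.37, 1.90, 1.31 and 2.07 in the 4 females and 6.22, 6.68, 7.18 and 7.51 in the 4 males. No female came near the lowest male, and male 2, which had the lowest *Pdyn* of the males, also had the lowest *Oprk1* and a ratio like that of the other males. The mean ratio was 1.91 ± 0.446 in females and 6.90 ± 0.564 in males (SD, n = 4 each). Every female was below every male in *Pdyn* and above every male in *Oprk1*, so the ratio was bound to separate the sexes. Since both genes had already been compared between the sexes, the ratio was given no test of its own.

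**Figure D2:**
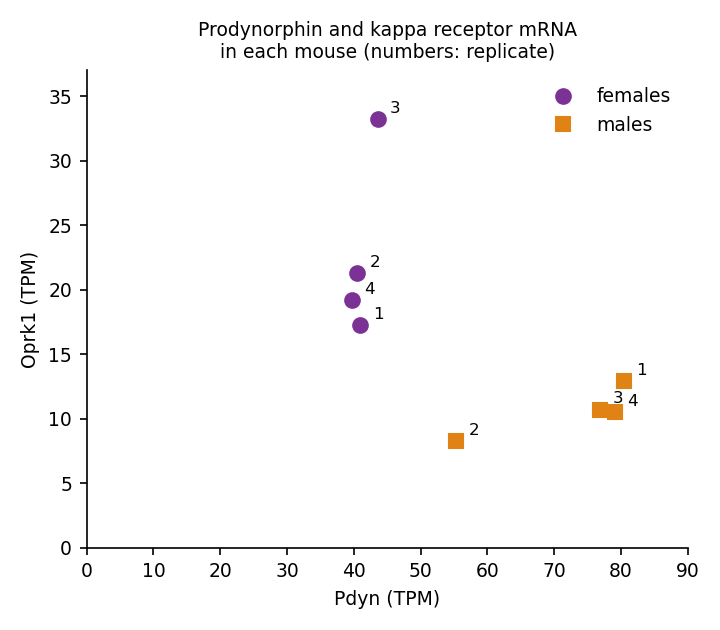
*Oprk1* against *Pdyn* in TPM for each mouse, females as circles and males as squares, with replicate numbers. Females lie at 39.7 to 43.6 TPM of *Pdyn* and at 17.3 TPM or more of *Oprk1*, males at 55.4 TPM or more of *Pdyn* and at 12.9 TPM or less of *Oprk1*.

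*Oprm1*, the mu receptor gene, also had its 4 highest values in the 4 females. Females had 25.5, 26.9, 43.5 and 38.2 TPM and males 18.8, 13.5, 21.0 and 15.6 TPM. Females 1 and 2 were close to the highest male, and females 3 and 4 were well above it. The averages were 28.2 ± 4.41 and 17.03 ± 2.51 CPM (SD, n = 4 each), 1.65-fold more in females. On the log2 scale the difference was 0.73 with a standard error of 0.153 (edgeR's quasi-likelihood test, adjusted p = 0.0798). The exact permutation test over mice gave p = 0.0286. Without female 1 the adjusted p of the edgeR test was 0.0467, in a fit that called 2.67% of all genes. *Oprm1* was not called in the other 7 omissions of 1 mouse, with an adjusted p of up to 0.217, and over all 8 the log2 fold change lay between 0.62 and 0.80.

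*Penk*, the enkephalin precursor gene, varied within each sex. It was at 105.7, 79.5, 60.0 and 106.8 TPM in females and at 68.7, 65.2, 58.3 and 30.96 TPM in males. The sexes overlapped because of female 3, and male 4 lay far below the other mice. The log2 fold change was 0.55 with a standard error of 0.256 (edgeR's quasi-likelihood test, adjusted p = 0.258), and the exact permutation test gave p = 0.114. *Penk* was measured on a stretch of chromosome 4 that another gene reads from the opposite strand. Of the 31-base stretches of its leading transcript, 8.95% also occur in the transcripts of that gene, *A830012C17Rik*. That gene was absent from the genes that the deposited transcripts could be joined to, and the strand setting of kallisto is not given in the sources used here. Whether reads of that gene were counted as *Penk* was not tested.

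The balance of *Penk* to *Pdyn* was described in the same way, with no test. The ratio of *Penk* to *Pdyn* TPM was 2.58, 1.97, 1.38 and 2.69 in females and 0.854, 1.18, 0.758 and 0.392 in males. Per length, all 4 females had more *Penk* than *Pdyn*, and among males only replicate 2 did. Without dividing by length only female 4 had more *Penk*, at 49.2 CPM against 47.7 CPM of *Pdyn*. Against *Sst*, the peptide gene that defines these cells, the same *Pdyn* values had no overlap between the sexes either. *Sst* exceeded *Pdyn* 23.9- to 43.2-fold in females and 11.4- to 19.4-fold in males. *Sst* itself averaged 1361 ± 390.3 TPM in female and 1015 ± 111 TPM in male mice (SD, n = 4 each), with a log2 fold change of 0.32 (edgeR's quasi-likelihood test, adjusted p = 0.302).

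*Oprd1*, the gene of the delta receptor, was read from few counts. Females had 2.10, 3.29, 4.64 and 3.30 TPM and males 2.32, 1.85, 2.31 and 1.91 TPM. Only female 1 fell within the range of the males, and the other 3 females were above it. The lowest count, 36 in male 4, has an exact Poisson interval of 25.2 to 49.8 that covers counting error only. The log2 fold change was 0.56 with a standard error of 0.236 (edgeR's quasi-likelihood test, adjusted p = 0.226), and the exact permutation test gave p = 0.0857.

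The nociceptin pair showed the smallest differences. *Pnoc* was at 14.1, 17.2, 12.9 and 10.9 TPM in females and at 16.6, 11.4, 9.01 and 14.7 TPM in males, with the sexes intermingled. Its log2 fold change was -0.04 with a standard error of 0.230 (edgeR's quasi-likelihood test, adjusted p = 0.942), and its sign turned under several alternatives. *Oprl1*, the nociceptin receptor gene, was at 65.5, 86.7, 96.2 and 81.3 TPM in females and at 76.7, 61.5, 62.8 and 75.8 TPM in males. It was the steadiest of the 7, with a coefficient of variation of 16.1% over the 8 mice, against 48.6% for *Oprk1*. Its log2 fold change was 0.18 with a standard error of 0.1005 (edgeR's quasi-likelihood test, adjusted p = 0.330), and the exact permutation test gave p = 0.143.

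**Figure D3:**
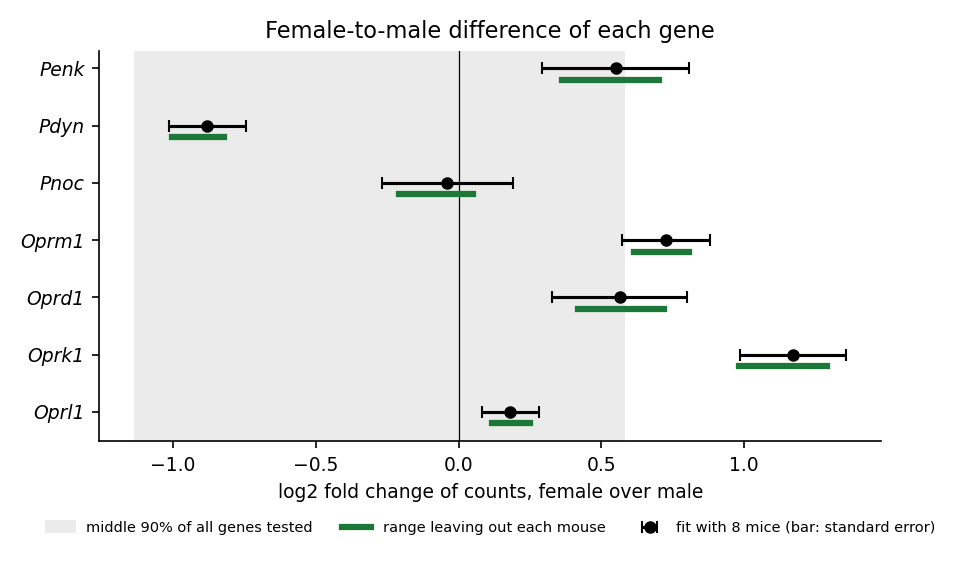
Log2 fold change of counts (female over male) of each gene, with the standard error as a bar, the range over leaving out each mouse below it and the middle 90% of all genes tested shaded. *Oprk1* at 1.17 and *Oprm1* at 0.73 lie right of the shaded band. *Pdyn* at -0.88 is the one gene well left of 0 but lies inside the band, and only the range of *Pnoc* crosses 0.

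The 3 genes whose sexes did not overlap were measured in libraries whose marker gene levels also moved with sex, though no marker gene was called. The summed neuron genes separated the sexes with females above, the direction of *Oprk1* and *Oprm1* and opposite to that of *Pdyn*. All 8 neuron genes had a positive log2 fold change (female over male), with a median of 0.29, 4 without overlap between the sexes and 0 called by edgeR's quasi-likelihood test, against 4 at an unadjusted p under 0.05. Over all genes tested 10.4% did not overlap and 20.5% had an unadjusted p under 0.05. With the mean of these neuron genes as a covariate, the log2 fold change was 0.64 for *Oprk1*, 0.32 for *Oprm1* and -1.16 for *Pdyn*, none called, and 3 genes in all were called. With the mean of the microglia genes as a covariate, an alternative chosen after the data were seen, it was 0.80 for *Oprk1*, 0.62 for *Oprm1* and -0.94 for *Pdyn*, none called. The signs of these 3 genes were kept in both fits, with smaller values for both receptors. With the neuron covariate the standard errors rose to 0.31 for *Oprk1*, 0.27 for *Oprm1* and 0.23 for *Pdyn*. The adjusted p of edgeR's quasi-likelihood test in that fit was 0.899, 0.952 and 0.805. Since the neuron genes themselves separated the sexes on their sum, that fit cannot fully part sex from neuron content. For *Oprd1* the log2 fold change of 0.56 became 0.036 with the neuron covariate and 0.21 with the microglia covariate, and for *Oprl1* that of 0.18 became 0.039 and 0.098. *Penk* was at 0.56 and 0.64 in the same fits and *Pnoc* at -0.035 and -0.029.

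The remaining marker lists had 0 genes called as well (edgeR's quasi-likelihood test, with 1 astrocyte, 4 microglia, 1 oligodendrocyte and 2 of 6 T cell genes at an unadjusted p under 0.05). The share of all genes tested at that unadjusted p was 20.5%. All 5 astrocyte, all 6 microglia and all 5 oligodendrocyte genes had a negative log2 fold change, with medians of -0.80, -1.32 and -0.72. Astrocyte genes summed to 70.5 to 241 TPM in females and to 196 to 409 TPM in males, with *Slc1a3* at 42.4 to 165 TPM over the 8 mice. Oligodendrocyte genes summed to 312 to 1495 TPM in females and to 526 to 1333 TPM in males, with *Mbp* at 100.6 to 553 TPM. *C1qa*, a complement gene of microglia, was at 58.4 to 552 TPM in females and at 174 to 1085 TPM in males. Endothelial genes summed to 15.6 to 53.6 and to 15.7 to 55.3 TPM, with *Cldn5* at 0.932 to 10.2 TPM, and T cell genes to 14.8 to 19.8 and to 14.04 to 85.6 TPM. The glutamatergic genes summed to 102 to 154 TPM in females and to 51.4 to 99.5 TPM in males, nearly all of it *Slc17a6*. The 4 identity genes of GABAergic *Sst* neurons summed to 1350 to 2553 and to 1241 to 1693 TPM, with *Gad1* at 177 to 324 TPM.

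Genes that mark other hypothalamic neurons, several of them known to make opioid peptides, were also detected in these libraries. *Avp*, the vasopressin gene, whose neurons make dynorphin as well, was at 1.25, 1.03, 6.76 and 369 TPM in females and at 941.0, 0.349, 873 and 465 TPM in males. It was near 0 in male 2, the male with the lowest *Pdyn*, and high in the other males. Female 4 had 369 TPM of *Avp* and 39.7 TPM of *Pdyn*, and male 2 had 0.349 TPM of *Avp* and 55.4 TPM of *Pdyn*. *Tac2*, the neurokinin B gene of arcuate neurons that also make dynorphin, was at 51.9 to 94.5 TPM in females and 9.81 to 49.4 TPM in males (edgeR's quasi-likelihood test, adjusted p = 0.185). *Fezf1*, a transcription factor gene of the ventromedial hypothalamus, was at 17.6 to 40.8 TPM in females and 2.39 to 16.6 TPM in males (edgeR's quasi-likelihood test, adjusted p = 0.170). *Nr5a1*, also of the ventromedial hypothalamus, and *Agrp*, also of arcuate neurons, went the other way. Their log2 fold changes were -0.44 and -0.82 (edgeR's quasi-likelihood test, adjusted p = 0.708 and 0.512). The list of 10 such genes summed to 144 to 631 TPM in females and 85.6 to 1344 TPM in males. Of the 10, 6 were tested, 0 called and 2 at an unadjusted p under 0.05, against 20.5% of all genes tested. Of the 6 tested, 2 were higher in females and 4 in males. *Hcrt*, *Pmch*, *Oxt*, *Kiss1* and *Crh* each had no count in at least 1 mouse. The part of such cells in the *Pdyn* levels was not tested.

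*Pomc*, the precursor of beta-endorphin and of the melanocortins and a marker of arcuate neurons, was measured beside the 3 precursor genes. It was at 127.6, 60.2, 149 and 45.5 TPM in females and at 220.4, 131, 261 and 156 TPM in males. Females 2 and 4 were far below the rest, and in TPM female 3 overlapped the lowest male. On log2 CPM every male was above every female (exact permutation p = 0.0286). The log2 fold change was -1.11 with a standard error of 0.347 (edgeR's quasi-likelihood test, adjusted p = 0.146).

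The most used transcript of each gene was compared next, since a gene total can hide a change of transcript. These shares rest on kallisto's estimate of how single-end reads divide among overlapping transcripts. *Pdyn-201* held 99.6% of *Pdyn* counts in females and 99.2% in males, so that nearly all *Pdyn* counts came from 1 transcript. *Penk-201* held 58.9% and 60.1%, with the rest on *Penk-202*, which also encodes protein. Among 31 annotated transcripts of *Oprm1*, 22 had counts, and *Oprm1-215* led with 52.6% ± 6.71 in females and 66.6% ± 4.66 in males (SD, n = 4 each). Every male was above every female on this share, from 43.6% to 59.7% in females and from 60.7% to 72.0% in males (exact permutation p = 0.0286, adjusted over 6 genes p = 0.171). *Oprk1-204* held 71.6% in females and 63.2% in males (exact permutation p = 0.286). *Oprl1* divided its counts among *Oprl1-201* at 33.8%, *Oprl1-205* at 29.4% and *Oprl1-209*, which is annotated for nonsense-mediated decay, at 22.9%. *Oprl1-201* did not differ between the sexes beyond its spread (exact permutation p = 0.743), nor did *Pnoc-201* (exact permutation p = 0.571). *Oprd1* has 1 annotated transcript.

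**Figure D4:**
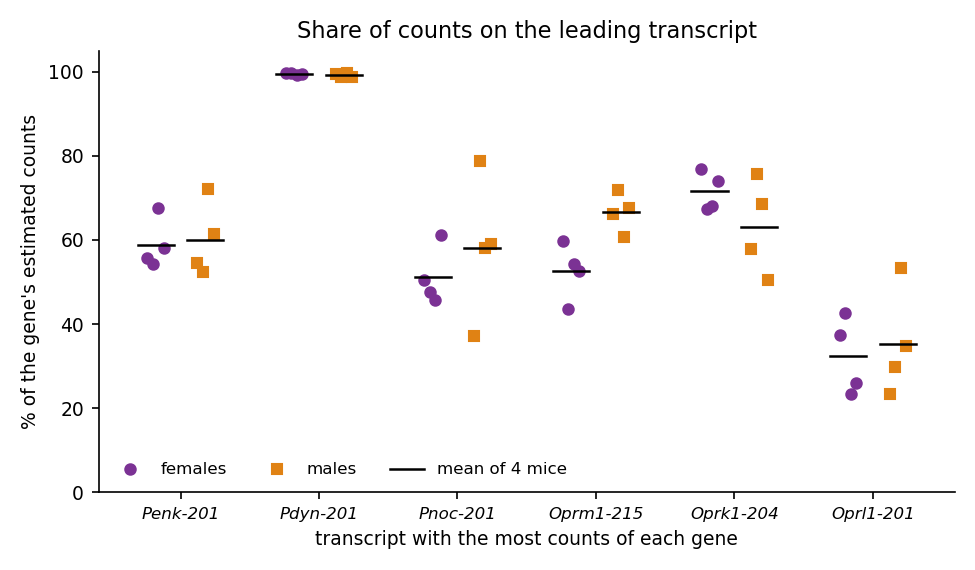
Share of each gene's estimated counts on its leading transcript (%) in 4 females (circles) and 4 males (squares), with the mean of each sex as a line. *Pdyn-201* lies near 100% in all 8 mice, *Oprm1-215* lies lower in every female than in every male, and the sexes overlap for the other 4 transcripts.

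The machinery around the peptides and receptors was described through 5 lists with 54 genes tested, of which 0 were called (edgeR's quasi-likelihood test), with 17 at an unadjusted p under 0.05, against 20.5% of all genes tested. DESeq2 called 8 of the 52 it tested, against 7.86% of all genes. Of 9 genes that process precursors, 3 were higher in females and 6 in males, with a median log2 fold change of -0.10. The convertases that cut prohormones had log2 fold changes of opposite sign. *Pcsk2*, the convertase that trims dynorphins and enkephalins, averaged 209.6 CPM in female and 136.9 CPM in male mice, the sexes not overlapping (log2 fold change 0.61, edgeR's quasi-likelihood test, adjusted p = 0.0655). *Pcsk1*, which makes the first cuts, averaged 41.6 CPM in female and 60.0 CPM in male mice, again without overlap (log2 fold change -0.53, edgeR's quasi-likelihood test, adjusted p = 0.113). *Ctsl*, a cathepsin that also cuts precursors and is abundant in microglia, had a log2 fold change of -0.81 (edgeR's quasi-likelihood test, adjusted p = 0.116). *Pam*, which amidates peptides, *Cpe*, which trims their basic ends, and *Scg5*, a chaperone of PCSK2, had log2 fold changes of 0.09, 0.07 and -0.05.

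Of 10 peptidase genes, 3 were higher in females and 7 in males, with a median log2 fold change of -0.06. *Anpep*, an aminopeptidase, had a log2 fold change of -2.60 from as few as 1 count in a mouse (edgeR's quasi-likelihood test, adjusted p = 0.260). *Mme*, the neprilysin that degrades enkephalins, was at 2.54 TPM in females and 1.39 TPM in males (log2 fold change 0.52, edgeR's quasi-likelihood test, adjusted p = 0.537). *Dpp3*, an enkephalin-degrading dipeptidyl peptidase, had a log2 fold change of -0.38 with males above and no overlap (edgeR's quasi-likelihood test, adjusted p = 0.136).

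Of 10 genes of the G proteins that opioid receptors use, 5 were higher in each sex and the median log2 fold change was 0.00018. *Gnai1* and *Gnai2*, both inhibitory alpha subunits, had log2 fold changes of -0.46 and -0.45, both with males above and no overlap (edgeR's quasi-likelihood test, adjusted p = 0.0849 and 0.0943). *Gnai3*, the remaining one of that family, had -0.25 (edgeR's quasi-likelihood test, adjusted p = 0.497). *Gnao1* and *Gnaz*, alpha subunits on the same list, went the other way, at 0.23 and 0.16 (edgeR's quasi-likelihood test, adjusted p = 0.123 and 0.413). For *Gnao1* every female was above every male. The median over 10 effector genes was 0.23, and 8 of them were higher in females. *Adcy1*, a neuronal adenylyl cyclase, was higher in every female (log2 fold change 0.63, edgeR's quasi-likelihood test, adjusted p = 0.0831), as was *Kcnj6*, a subunit of the potassium channels that opioid receptors open (0.31, adjusted p = 0.179 in the same test). *Kcnj5*, another subunit, had -0.40 (edgeR's quasi-likelihood test, adjusted p = 0.406). The median over 15 receptor regulators was 0.09, and 11 of them were higher in females. *Wls*, a Wnt-sorting protein that binds the mu receptor, and *Rgs10*, a brake on G protein signaling that is abundant in microglia, had -0.92 and -0.90 (edgeR's quasi-likelihood test, adjusted p = 0.188 and 0.192). *Arrb2*, the arrestin that turns off the mu receptor, had -0.46 (edgeR's quasi-likelihood test, adjusted p = 0.185).

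For each of the 7 genes the 3 genes with the most similar profile over the 8 mice were found by the mean absolute difference of centred log2 CPM among 13958 genes. For *Pdyn* these were *Ghsr*, the ghrelin receptor gene, at 0.115, *BC034090* at 0.144 and *Mipol1* at 0.147, where *Pdyn* itself deviated from its mean by 0.429. *Ghsr* was at a log2 fold change of -0.68 (edgeR's quasi-likelihood test, adjusted p = 0.105). *Oprk1*, which deviated by 0.572, was closest to *Ddn* at 0.108, *Atp2b4* at 0.123 and *Lypd6b* at 0.130. *Lypd6b*, related to modulators of nicotinic receptors, was called (log2 fold change 1.35, edgeR's quasi-likelihood test, adjusted p = 0.0202). *Oprm1*, with a deviation of 0.360, was closest to *Celsr2* at 0.0745, *Nhs* at 0.0806 and *Rnft2* at 0.0820. *Penk* had *Hepacam2*, *Cfap206* and *Olfr729* next to it at 0.142 to 0.156, and *Pnoc* had *Mrpl20*, *Bad* and *Tmem200c* at 0.112 to 0.132. The nearest to *Oprd1* were *Cpne6*, *Traip* and *Tatdn3* at 0.0638 to 0.0764, and the nearest to *Oprl1* were *Dym*, *Mrpl44* and *Zfp322a* at 0.0471 to 0.0562. With 8 mice in 2 groups, likeness in profile reflects the shared difference between the sexes as well as the spread within them.

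In GRCm38, the annotation places *Pdyn* at chr2:129686565-129699844 on the minus strand (ENSMUSG00000027400.11), *Oprl1* at chr2:181715016-181720985 on the plus strand (ENSMUSG00000027584.16) and *Oprk1* at chr1:5588466-5606131 on the plus strand (ENSMUSG00000025905.13). *Penk* lies at chr4:4133531-4138819 (ENSMUSG00000045573.9) and *Oprd1* at chr4:132110726-132144486 (ENSMUSG00000050511.1), both on the minus strand. *Pnoc* lies at chr14:65400673-65425472 on the minus strand (ENSMUSG00000045731.6) and *Oprm1* at chr10:6758506-7038198 on the plus strand (ENSMUSG00000000766.18). *Oprm1* shares 96 exon bases, 1.19% of its exons, with *Ipcef1* on the opposite strand, which had a log2 fold change of 0.13. None of the 31-base stretches of the leading transcripts of *Pdyn*, *Oprm1*, *Oprk1* and *Oprl1* occurred in another gene's transcripts, against 1.27% for *Pnoc* and 0.451% for *Oprd1*.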

How the data were processed

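RNA of sorted TN SST neurons was read as 1 single-end library per mouse (4 females, 4 males) after a stranded total RNA kit. Per the submitters' notes and the study's methods, the authors assigned reads to mm10 transcripts with kallisto 0.46.2 and used DESeq2 2.11.40.6. The deposited values per transcript are estimated counts, not normalized, the effective length, and TPM, which came in 2 blocks per file. The deposited TPM column sums to 1000000 per block, and since it holds 2 blocks it was recorded as a score rather than as TPM. The counts were added over both blocks, and gene TPM was summed over transcripts and averaged over blocks. The design had assumed 1 TPM value per transcript.

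With GENCODE M21, 116728 of 118489 transcripts were joined to genes, leaving out 0.429% to 0.611% of counts. Counts were rounded and compared by sex alone with edgeR 4.0.16 (R 4.3.3, with limma 3.58.1), using TMM, filterByExpr and the quasi-likelihood test. Genes were called at a Benjamini-Hochberg adjusted p under 0.05, and log2 CPM had a prior count of 2. Exact permutation tests, 2-sided, used Python 3.11.15 and scipy 1.17.1. With 4 mice against 4, p cannot go below 0.0286. The floor was taken as 3 counts, 0.148 to 0.458 CPM, which like all intervals here covers counting error only. The scripts were first run on simulated counts.

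The 7 genes, the lists and the tests were chosen with earlier results of these data known. Named in full are the 7 genes and *Pomc*, from each pathway list every gene called and the 3 with the largest absolute log2 fold change, from the marker lists a few genes by name, and 3 similar genes per opioid gene with a mean of at least 20 counts. *Pam*, *Cpe*, *Scg5*, *Gnao1*, *Gnaz*, *Avp*, *Tac2*, *Fezf1*, *Nr5a1* and *Agrp* from these lists, and *Ipcef1*, were named after their values were seen. Alternatives were DESeq2 1.42.0, RLE size factors, no filter, at least 10 counts in at least 4 mice, a length offset, limma on log2(TPM + 0.1), a neuron covariate, counts without *Lars2*, each block alone, a replicate block, and leaving out each mouse. A microglia covariate was added after seeing the data. Coding sequences were built from the GENCODE M21 annotation and transcripts.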

Additional observations from a re-analysis of the deposited data

Results flagged for a closer look

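Among 88 groups of 4 mice examined for a value far from the other 3 (Dixon's test at the 95% level), 9 were found. Chance gives about 1 in 20 groups. *Penk* in male 4 was at 16.0 CPM, with the other males at 31.7 to 32.1 CPM. *Pdyn* in male 2 was at 68.6 CPM, with the other males at 99.1 to 104.8 CPM, and in TPM the same mouse was at 55.4 against 76.9 to 80.4. *Oprk1* in male 1 was at 23.7 CPM, with the other males at 17.5 to 18.3 CPM. Each of these 3 genes thus had its outlying CPM value in a different male. In TPM, which was examined as well, neither *Penk* nor *Oprk1* had a value flagged.

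Among genes of other cells, *Avp* in female 4 was at 369 TPM against 1.03 to 6.76 TPM in the other females. *Fezf1* in female 4 was at 40.8 TPM against 17.6 to 20.7 TPM, and in male 4 at 16.6 TPM against 2.39 to 2.78 TPM. The glutamatergic genes summed to 154 TPM in female 4 against 102 to 105.3 TPM in the other females, and the T cell genes to 85.6 TPM in male 2 against 14.04 to 25.3 TPM in the other males.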

How the results depend on the processing

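In edgeR's quasi-likelihood test 24 genes were called, 17 higher in females and 7 in males. The count was 1052 with DESeq2 (586 and 466), 13 with the length offset (6 and 7), 5 with limma on TPM (2 and 3), 3 with the neuron covariate and 13 with the microglia covariate, and 8 to 415 leaving out 1 mouse, with 415, 10, 13 and 9 without females 1 to 4 and 411, 13, 8 and 13 without males 1 to 4. DESeq2 called 7.86% of all genes it tested and 3 of the 7 opioid genes. By DESeq2 these were *Pdyn* (-0.88, adjusted p = 2.51e-06), *Oprk1* (1.17, adjusted p = 4.48e-06) and *Oprm1* (0.73, adjusted p = 0.00354). With no filter, where 32 of 24952 genes (0.128%) were called, 2 of the 7 were, *Pdyn* (-0.88, adjusted p = 0.0284) and *Oprk1* (1.17, adjusted p = 0.0343). With the length offset (13 of 15194 genes, 0.0856%) 1 was called, *Pdyn* (-0.90, adjusted p = 0.0466). With the first block alone (24 of 13873 genes, 0.173%) it was 1, *Pdyn* (-0.95, adjusted p = 0.0371). With the second block alone (23 of 13711 genes, 0.168%) it was 1, *Oprk1* (1.22, adjusted p = 0.0167). Leaving out 1 mouse called 0 to 3 of the 7, with 3 without female 1, 2 without male 1 (*Pdyn* and *Oprk1*) and 1 without male 2 (*Pdyn*). Of all genes tested these 3 fits called 2.67%, 2.65% and 0.0843%. Leaving out 1 mouse moved *Pdyn* over -1.005 to -0.82, *Oprk1* over 0.98 to 1.29 and *Oprm1* over 0.62 to 0.80. It moved *Penk* over 0.36 to 0.70, *Oprd1* over 0.42 to 0.72 and *Oprl1* over 0.12 to 0.25. *Pnoc* changed sign, to 0.019 with the length offset, 0.11 with limma on TPM and 0.039 with the second block alone, and ranged from -0.21 to 0.050 leaving out 1 mouse. The cause of these changes was not tested. Of 52 pathway genes tested DESeq2 called 8 (*Adcy1*, *Ctsl*, *Gnai1*, *Gnai2*, *Gnao1*, *Pcsk1*, *Pcsk2* and *Rgs17*), against 7.86% of all genes. Leaving out 1 mouse called 0 to 4 pathway genes. There were 3 without female 1 (*Ctsl*, *Gnai2* and *Pcsk2*) and 4 without male 1 (*Adcy1*, *Ctsl*, *Pcsk2* and *Rgs17*), against 2.67% and 2.65% of all genes. In the order by level, 4 of the 7 genes changed place in CPM, which does not divide by length and puts *Oprk1* above *Oprm1*, 2 in females alone and 5 in males alone.

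The labels do not say whether the replicate numbers pair the mice. Same-numbered females and males had correlations of -0.396, -0.156, 0.0356 and 0.0719, and differently numbered ones of -0.268 to 0.416. These values cannot settle whether same-numbered mice were handled together. With the replicate block 1 gene was called in all and 0 of the 7, with *Pdyn* at -0.86, *Oprk1* at 1.15 and *Oprm1* at 0.72 on the log2 scale.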
